A study of Sus scrofa with 8 samples.

Results

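Genes that regulate blood vessels were followed in dorsal subcutaneous fat through 4 members: DLL4, EGFL7, LYL1 and GATA2. They were taken by gene name from the 458 genes for which normalized counts of each pig were used here, so that 4 of 458 genes are described. The 458 genes were those that the authors had called different between the breeds in the same pigs, and every comparison of breeds below therefore describes how far the pigs lie apart and is no independent evidence of a difference. The study compared purebred, castrated male Alentejano (AL) pigs, a fatty local Portuguese breed, with purebred, castrated male Bísaro (BI) pigs, a leaner one. The 4 AL pigs (44, 49, 52 and 63) and the 4 BI pigs (25, 34, 36 and 37) gave 1 stranded paired-end mRNA library each. All 8 pigs were reared free range on commercial diets given ad libitum and slaughtered at about 150 kg, which the labels call carcass weight. The numbers name animals and pair no AL pig with a BI pig. Breed was the only labelled difference, and each breed was represented by 4 animals of 1 sex, diet and site of fat. The paper reports that AL pigs averaged more days on trial than BI pigs, so that breed and time on trial cannot be told apart.

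Fat tissue is laced with capillaries, and its vessels grow when the fat mass grows. Endothelial cells, which line the vessels, choose between leading a new sprout and staying in its stalk by Notch signalling: the ligand DLL4 on one cell binds a Notch receptor on its neighbour, the receptor is cut, and its inner part joins the DNA-binding protein RBPJ in the nucleus. EGFL7 is a protein that endothelial cells secrete into the matrix around the growing vessel, and its gene carries the endothelial microRNA MIR126 in an intron. LYL1 is a basic helix-loop-helix factor related to TAL1, which binds E-box motifs with partners that include LMO2, LDB1 and GATA factors in blood-forming and endothelial cells. GATA2 is a zinc finger factor of blood progenitors, mast cells and endothelium, and in fat it is also made by preadipocytes, where it holds back their differentiation.

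DLL4, LYL1 and GATA2 were overexpressed in BI and EGFL7 was overexpressed in AL. Between the breeds the levels differed by 2.67-fold for DLL4, 3.27-fold for LYL1, 2.13-fold for GATA2 and 1.86-fold for EGFL7, on the log2(normalized count + 1) scale, which understates the change of genes with few counts. In each of the 4 genes the breeds did not overlap, against 79.5% of the 458 genes, so that a count of 4 of 4 lies near the background. By direction, 31.2% of the 458 genes had breeds that did not overlap and were higher in BI, and 48.3% did not overlap and were higher in AL. A log2 fold change (log2 FC) below is the mean of log2(normalized count + 1) in AL minus that in BI, with its standard error (SE), so that negative values are higher in BI. It was tested by exact permutation of the breed labels, two-sided, over the 70 ways to divide the pigs into equal groups, whose smallest possible p is 0.029 and is reached wherever the breeds do not overlap. By limma over the 458 genes, the adjusted p was under 0.05 for the 4 genes and for 99.6% of all. In bulk tissue, fewer cells of a type and less RNA per cell cannot be told apart.

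**Figure D1:**
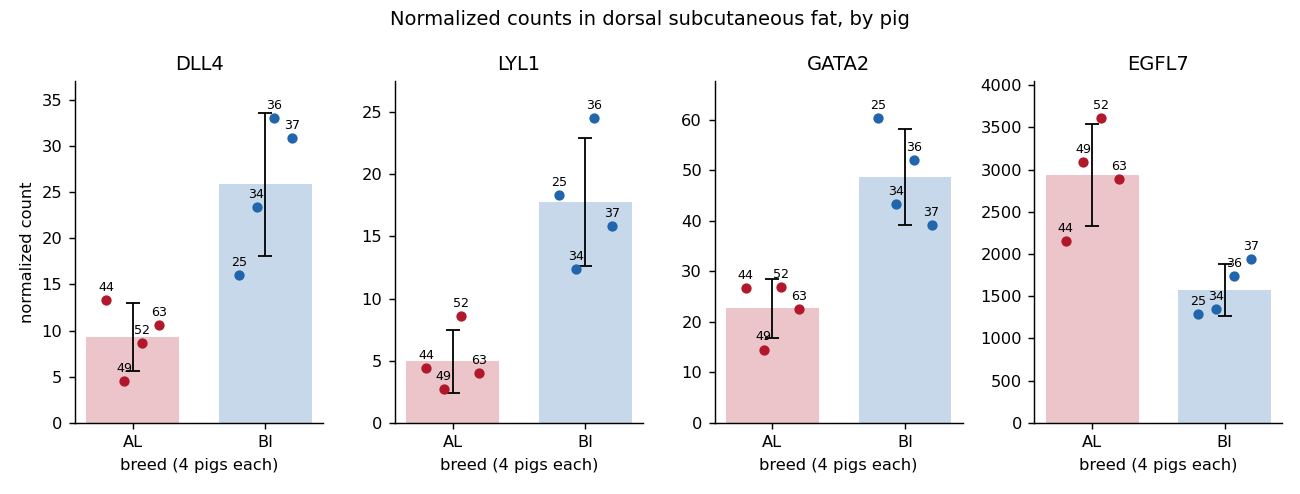
Normalized counts (vertical axes, from 0, a separate scale per gene) of DLL4, LYL1, GATA2 and EGFL7 in the 4 AL pigs (red) and the 4 BI pigs (blue). Points are pigs with their numbers, bars are breed means and error bars are SD. The BI points lie above all AL points for DLL4, LYL1 and GATA2, and the AL points lie above all BI points for EGFL7.

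The stretch of 250 bases before the RefSeq start of each gene (build Sscrofa11.1) is shown because 3 of the 4 genes moved together between the breeds and the factors named above bind known motifs. Sequences are given 5′ to 3′ on the strand of the gene, and capitals mark the GATA motif GATAA, the E-box CANNTG, and TGGGAA, the core bound by RBPJ, on either strand. The ETS core GGAA was also searched and is not in capitals, and it lies within TGGGAA. The intervals are chr1:130386412-130386661 on the minus strand for DLL4, chr2:65950358-65950607 on the plus strand for LYL1, chr13:71980889-71981138 on the plus strand for GATA2, and bases 1119034 to 1119283 on the minus strand of an unplaced scaffold for EGFL7.
DLL4: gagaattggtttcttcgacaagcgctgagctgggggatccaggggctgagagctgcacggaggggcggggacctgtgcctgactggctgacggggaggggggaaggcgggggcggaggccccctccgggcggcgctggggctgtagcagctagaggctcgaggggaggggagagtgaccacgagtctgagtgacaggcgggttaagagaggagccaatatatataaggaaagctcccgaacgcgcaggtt
LYL1: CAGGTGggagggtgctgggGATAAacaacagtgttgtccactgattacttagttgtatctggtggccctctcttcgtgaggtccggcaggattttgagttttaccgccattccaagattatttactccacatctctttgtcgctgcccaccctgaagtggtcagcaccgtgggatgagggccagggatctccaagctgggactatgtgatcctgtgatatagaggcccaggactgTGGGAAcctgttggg
GATA2: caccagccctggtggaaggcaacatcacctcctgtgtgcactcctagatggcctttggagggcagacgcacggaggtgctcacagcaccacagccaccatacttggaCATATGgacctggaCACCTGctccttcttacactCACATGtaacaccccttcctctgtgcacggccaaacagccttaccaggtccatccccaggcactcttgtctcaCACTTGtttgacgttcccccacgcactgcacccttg
EGFL7: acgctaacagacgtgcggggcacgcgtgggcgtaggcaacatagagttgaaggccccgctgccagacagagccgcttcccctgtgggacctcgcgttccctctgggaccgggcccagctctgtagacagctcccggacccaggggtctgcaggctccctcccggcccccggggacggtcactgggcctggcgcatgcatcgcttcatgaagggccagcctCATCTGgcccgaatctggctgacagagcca

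Of the 4 stretches, that of LYL1 alone held GATAA, which 19.95% of 20632 promoters of protein-coding genes of the same length held, and that of LYL1 alone held TGGGAA, held by 24.6% of them. E-boxes were found 4 times before GATA2, 1 time before LYL1, 1 time before EGFL7 and 0 times before DLL4, and 62.3% of all promoters held at least 1. GGAA occurred 2 or 3 times in each stretch, and 92.7% of all promoters held it. The GC content was 64.8% for DLL4, 67.6% for EGFL7, 57.2% for GATA2 and 52.8% for LYL1, beside a median of 57.2% over all promoters. These matches describe letters in these windows and are not binding sites.

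DLL4 (ENSSSCG00000004755), the Notch ligand of sprouting endothelium, lies at chr1:130376720-130386411 on the minus strand, with 3429 bases of exon and no other gene within 5 kb. Its normalized counts were 13.3, 4.53, 8.60 and 10.6 in AL pigs 44, 49, 52 and 63, and 16.1, 23.4, 33.1 and 30.8 in BI pigs 25, 34, 36 and 37. AL 44 was the highest AL pig and BI 25 the lowest BI pig, and they lay 2.73 normalized counts apart. AL averaged 9.27 ± 3.71 and BI 25.8 ± 7.73 normalized counts (SD, n = 4 each), with a log2 FC of −1.42 (SE 0.37, exact p = 0.029). By the reads recovered from the step of 1 read, these values rested on 5 to 9 reads per AL pig and 21 to 37 reads per BI pig. By counting error alone, the 95% exact Poisson interval of AL 44 ran from 6.10 to 25.3 normalized counts and that of BI 25 from 9.94 to 24.5, so that this pair of pigs cannot be ordered at this depth. Among the 195 genes that were higher in BI, 69 had a larger log2 FC than DLL4.

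LYL1 (ENSSSCG00000024549), the TAL1-related factor, lies at chr2:65950608-65956423 on the plus strand, with 3939 bases of exon. It gave 4.44, 2.72, 8.60 and 3.98 normalized counts in AL pigs 44, 49, 52 and 63, and 18.4, 12.4, 24.6 and 15.8 in BI pigs 25, 34, 36 and 37. AL 52 stood above the other AL pigs and BI 34 was the lowest BI pig, with a gap of 3.76 normalized counts between them. AL averaged 4.94 ± 2.55 against 17.8 ± 5.15 normalized counts in BI (SD, n = 4 each), and the log2 FC of −1.71 (SE 0.35, exact p = 0.029) was the largest in size of the 4 genes. Only 27 of the 195 genes higher in BI had a larger one. LYL1 was also the gene with the fewest reads of the 4: 3 reads in each of AL 44, AL 49 and AL 63, 8 in AL 52, and 18 to 26 in the BI pigs. The 95% Poisson interval of AL 44 ran from 0.916 to 13.0 normalized counts and that of AL 52 from 3.71 to 16.9, while that of BI 34 ran from 7.33 to 19.5.

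The last 1616 bases of LYL1 exon overlap exons of NFIX, a transcription factor gene on the opposite strand, whose authors' mean over the 8 pigs was 535 normalized counts, 47.1 times that of LYL1. The libraries were stranded, but the strand setting of the counting is not given in the sources used here, and without strand the reads of this stretch cannot be told apart. TRMT1, a tRNA methyltransferase gene on the same strand, ends 1283 bases before LYL1 and had an authors' mean of 11.3 normalized counts. Neither neighbour is among the 458 genes, so their part in the LYL1 difference was not tested.

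GATA2 (ENSSSCG00000011618) lies at chr13:71981139-71997626 on the plus strand, with 6687 bases of exon. Its normalized counts were 26.7, 14.5, 26.9 and 22.6 in AL pigs 44, 49, 52 and 63, and 60.4, 43.3, 51.97 and 39.2 in BI pigs 25, 34, 36 and 37. BI 37, the lowest BI pig, stood 12.3 normalized counts above AL 52, the highest AL pig, and was 1.46 times as high. The breed means were 22.7 ± 5.78 for AL and 48.7 ± 9.45 for BI (SD, n = 4 each), giving a log2 FC of −1.09 (SE 0.24, exact p = 0.029), from 16 to 25 reads per AL pig and 47 to 79 per BI pig. A larger log2 FC was found in 143 of the 195 genes higher in BI, whose median was −1.29. An annotated long noncoding RNA, LOC102160340, overlaps 1761 exon bases of GATA2 on the opposite strand, and its level was not analysed here.

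The order of the pigs within a breed was not shared by the 3 genes. BI 25 had the lowest DLL4 and the highest GATA2 of the BI pigs, and BI 36 had the highest DLL4 and the highest LYL1. In AL, pig 49 was the lowest in all 3 genes, while the highest was pig 44 for DLL4 and pig 52 for LYL1 and GATA2.

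EGFL7 (ENSSSCG00000005828), the secreted matrix protein of endothelium, is annotated at bases 1107088 to 1119033 on the minus strand of an unplaced scaffold of Sscrofa11.1, with 4158 bases of exon. It ran against the other 3 genes. The AL pigs 44, 49, 52 and 63 gave 2154, 3087, 3614 and 2893 normalized counts, and the BI pigs 25, 34, 36 and 37 gave 1290.0, 1353, 1733 and 1936. AL 52 was the highest pig, and AL 44, the lowest AL pig, lay 218 normalized counts above BI 37, the highest BI pig. AL averaged 2937 ± 605 and BI 1578 ± 308 normalized counts (SD, n = 4 each), with a log2 FC of 0.89 (SE 0.21, exact p = 0.029). Between 1454 and 3404 reads per pig lay behind these values, so that counting error is small beside the differences between pigs. Among the 263 genes higher in AL, 200 had a larger log2 FC and 40 a larger mean count.

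The EGFL7 call was lost when the scaling was recomputed over the 458 called genes. With size factors recomputed over the 458 genes as a median of ratios, its log2 FC was 0.38 (exact p = 0.0857), and with an upper quartile it was 0.24 (exact p = 0.286), and the breeds overlapped under both. Such scalings take the bulk of genes as equal between pigs, which a table of called genes does not meet. They therefore cannot decide whether the EGFL7 call holds. The median log2 FC of the table moved by −0.51 and −0.65, toward BI. The number of genes without overlap changed from 143 higher in BI and 221 higher in AL to 171 and 102, or to 176 and 60. DLL4, LYL1 and GATA2 kept their direction and breeds without overlap under both, and a shift toward BI favours such genes.

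The gene for AGPAT2, an acyltransferase of triglyceride synthesis in adipocytes, faces EGFL7 on the opposite strand with 616 bases between their ends. The authors' mean for AGPAT2 was 15451.1 normalized counts, 6.84 times that of EGFL7. AGPAT2 is not among the 458 genes. As the strand setting of the counting is not given in the sources used here, and the reads were not examined, it was not tested whether the EGFL7 count holds reads of the opposite strand. The authors' mean of EGFL7 was 2257 normalized counts, above ADIPOQ, the adipokine made by fat cells (173), and below the adipocyte marker FASN (3862). Such levels do not tell the strand of the reads. The values of EGFL7 are counts assigned to the gene, and both its level and its breed difference carry this limit. MIR126, of 73 bases, lies in an intron of EGFL7 on the same strand and shares no exon base with it, so that the EGFL7 counts do not measure the microRNA.

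**Figure D2:**
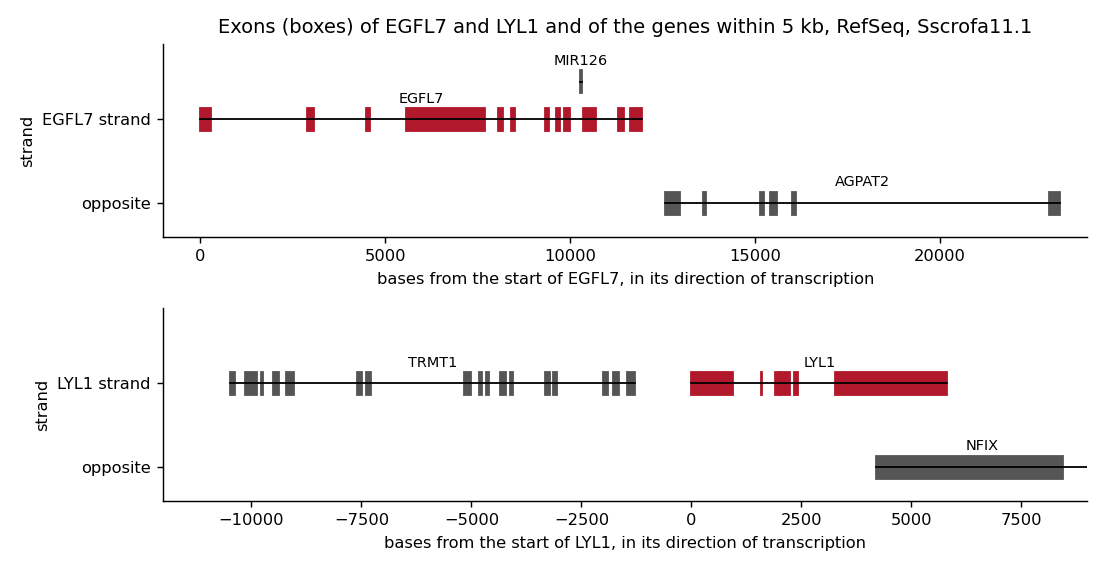
Exons (boxes) and gene spans (lines) around EGFL7 (top) and LYL1 (bottom), in bases from the start of each gene in its direction of transcription, with genes of the same strand above those of the opposite strand. MIR126 is drawn above EGFL7 for legibility, and NFIX runs past the right edge. AGPAT2 ends 616 bases from the end of EGFL7, and the first NFIX box lies over the last 1616 bases of LYL1.

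Per kb of exon, with the exons of all RefSeq transcripts merged, the counts assigned to EGFL7 stood far above those of the other 3 genes. They were 706 ± 145 normalized counts per kb (SD, n = 4) in AL and 379 ± 74.2 in BI. In AL, the levels of GATA2 (3.39 ± 0.864 per kb) and DLL4 (2.70 ± 1.08 per kb) differed by less than their SD, and LYL1 was the lowest at 1.25 ± 0.647 per kb. In BI, DLL4 (7.53 ± 2.25 per kb) and GATA2 (7.28 ± 1.41 per kb) again differed by less than their SD, with LYL1 at 4.51 ± 1.31 per kb. Over all 10710 genes of the authors' table, 177 had a larger mean count than EGFL7, against 3115 for GATA2, 4736 for DLL4 and 5916 for LYL1.

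Levels of the other genes of these systems could be set beside them through the authors' mean over the 8 pigs, which has no SD or n. Of 40 endothelial markers, 30 had such a mean, and their median was 11.7 normalized counts per kb. EGFL8, a relative of EGFL7 whose level was 1928 per kb, and EGFL7, at 543 per kb, had the highest assigned counts of the 30, followed by the TGF-beta co-receptor ENG at 248 per kb. The limit on strand holds for this order too. Adipocyte markers lay on both sides of EGFL7, with ADIPOQ at 176 per kb below it, and FABP4 at 772, PLIN1 at 995 and AGPAT2 at 12887 above it. The junction proteins that define endothelium were lower, with PECAM1 at 36.8 and CDH5 at 20.3 per kb. GATA2 (5.34 per kb) and DLL4 (5.12 per kb) stood below that median, and above the receptors TIE1 (2.40 per kb), KDR (1.03 per kb) and TEK (0.633 per kb).

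**Figure D3:**
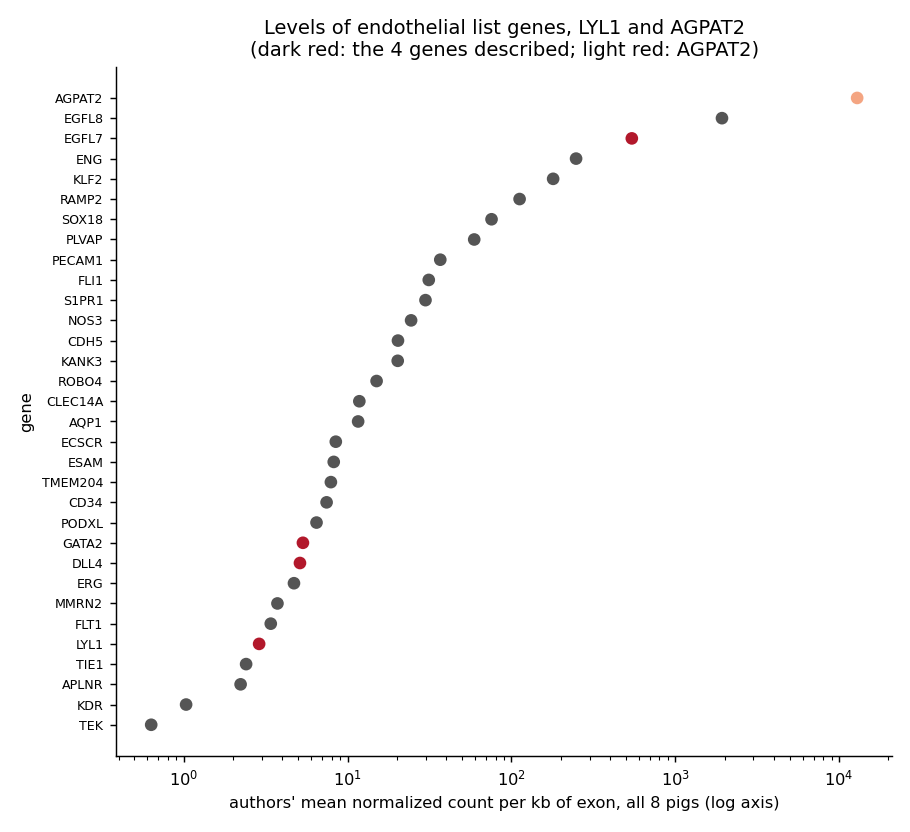
Authors' mean normalized count per kb of exon over the 8 pigs (horizontal log axis) for the 30 endothelial genes with a mean, LYL1 and AGPAT2. Dark red marks the 4 genes described and light red marks AGPAT2. AGPAT2 is at 12887 per kb, EGFL7 is at 543 below EGFL8, and GATA2, DLL4 and LYL1 lie at 5.34, 5.12 and 2.88.

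Among the Notch ligands, DLL4 was at 5.12 normalized counts per kb by the authors' mean, below JAG1 at 10.8 and JAG2 at 10.7 and above DLL1 at 1.94 and DLL3 at 1.79. The endothelial receptor NOTCH4 was at 9.12 per kb, NOTCH1 at 7.20, NOTCH3, the receptor of mural cells, at 4.68, and NOTCH2 at 0.908. The median of the 35 of 38 Notch pathway genes with a mean was 3.70 per kb. Of the factors that work with LYL1 and GATA2, LDB1 (33.97 per kb), the ETS factors FLI1 (31.3 per kb) and SPI1 (29.9 per kb), and LMO2 (18.5 per kb) were higher than both, and RUNX1 was at 0.430 per kb. LYL1 itself was at 2.88 per kb, beside 3.07 for GATA1 and 3.25 for GATA3.

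Between the breeds, the other vascular genes with values per pig were mostly higher in BI. The lists were chosen with results of these data known and the table holds called genes only, so that they can be counted but not tested. The vascular lists hold 110 genes, of which 15 had values per pig. Over the authors' whole table, 458 of 10710 genes had values per pig. The rest of the list genes were not called, some of them without an authors' mean under their symbol. No breed difference of them is shown here. Breeds did not overlap in 10 genes that were higher in BI and in 1, EGFL7, that was higher in AL, and they overlapped in 4. The 11 of 15 genes without overlap stand beside 79.5% of the 458 genes, the 10 higher in BI beside 31.2% and the 1 higher in AL beside 48.3%. The median log2 FC of the 15 genes was −1.21, beside 0.83 over the 458 genes. Without DLL4, EGFL7, LYL1 and GATA2, 7 of 11 genes were higher in BI without overlap, 0 were higher in AL without overlap and 4 overlapped, so that a smaller share was without overlap than the 79.5% of the whole table.

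Of the 40 endothelial markers, 30 had an authors' mean but only 9 had values per pig, and 6 of these are not among the 4 genes described. Core markers with a mean, such as PECAM1, CDH5, ENG, KDR, FLT1, TEK and NOS3, were not among the called genes. The 9 therefore do not stand for endothelial genes as a class. TIE1, the receptor that modulates angiopoietin signals, had 10.4 to 18.6 normalized counts in AL and 25.8 to 49.7 in BI (log2 FC −1.41, SE 0.26, exact p = 0.029). CLEC14A, a C-type lectin of endothelial cells, was at 16.5 ± 1.24 in AL and 37.1 ± 12.3 in BI (SD, n = 4 each, log2 FC −1.06, SE 0.28, exact p = 0.029). TMEM204, a membrane protein of cell junctions, had the largest log2 FC in size of the 6, at −1.72 (SE 0.33, exact p = 0.029). KANK3, an ankyrin repeat protein of vessels, was at 44.2 ± 11.8 in AL and 99.9 ± 17.2 in BI, with 162 bases between its end and that of RPS28 on the opposite strand. KLF2, the flow-induced factor that keeps endothelium quiescent, was at 174 ± 47.9 in AL and 409 ± 125 in BI (SD, n = 4 each), and neither KANK3 nor KLF2 overlapped between the breeds (log2 FC −1.19, SE 0.24, and −1.21, SE 0.28). PODXL, a sialomucin of the vessel lumen, overlapped between the breeds, since AL 44 had 38.5 normalized counts and BI 37 had 37.5.

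In the Notch list, 3 of 38 genes had values per pig, and DLL4 was the one ligand among them. NUMBL, an inhibitor of Notch, was also higher in BI, at 52.2 ± 22.2 against 24.2 ± 3.86 normalized counts in AL (log2 FC −0.99, SE 0.33, exact p = 0.029). DTX4, a ubiquitin ligase of the Deltex family that acts on Notch, had 54.5 to 99.8 normalized counts in AL and 15.8 to 63.3 in BI, and the breeds overlapped through BI 36 (log2 FC 1.59, SE 0.49). Notch receptors and the target genes HES1, HEY1 and HEYL are not among the 458 genes, so that no breed difference of receptors or targets was measured here. Of 16 partner factors, LYL1 and GATA2 were the 2 with values per pig.

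Genes that endothelium induces under flow or BMP signals had 4 of 14 members with values per pig, KLF2 among them. KLF4, a factor induced by flow like KLF2, was at 94.4 ± 33.7 normalized counts in AL and 201 ± 67.0 in BI, and its breeds met almost end to end, with 132.8 in AL 63 and 133.1 in BI 25. ID1, a BMP target, had 7.41 to 11.8 in AL and 9.94 to 63.9 in BI and overlapped. ICAM1, the adhesion molecule for leukocytes, had 2.66 to 10.4 in AL and 7.56 to 35.8 in BI and overlapped too.

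**Figure D4:**
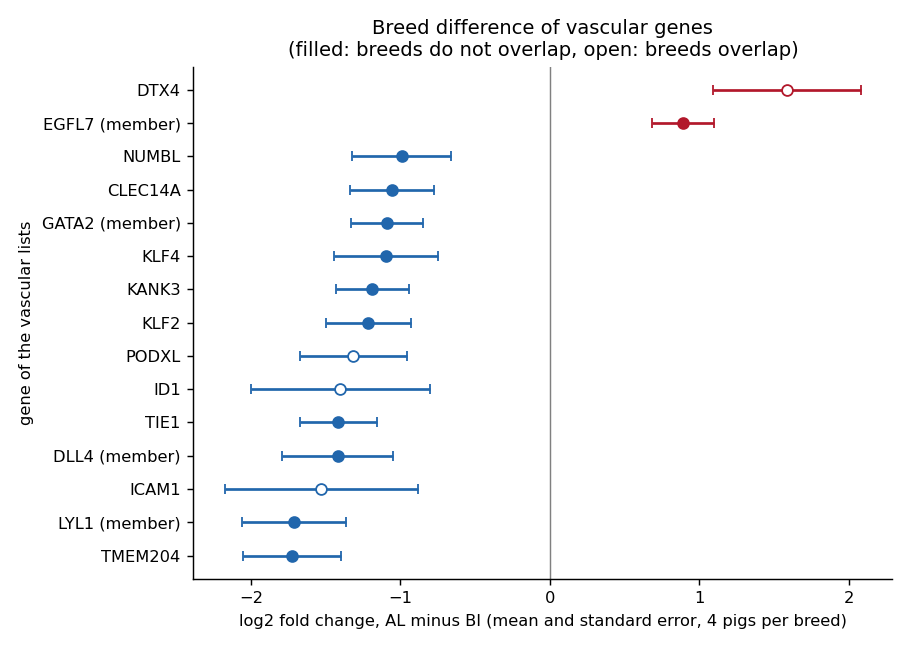
Log2 fold change, AL minus BI, with its standard error (4 pigs per breed) for the 15 genes of the vascular lists with values per pig. Filled points have breeds that do not overlap and open points have breeds that overlap. EGFL7 and DTX4 lie to the right of 0, and the other 13 genes lie to the left.

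Levels of the called markers differed between the breeds. Markers have values per pig only because they were called, so that this difference was largely set by that choice. The summed normalized counts of the 6 other endothelial genes were 248 to 360 in AL and 588 to 877 in BI, and without KLF2, which gave much of that sum, they were 102 to 117 and 194 to 331. Of 16 adipocyte markers, 5 had values per pig (FASN, SCD, FABP4, LEP and CEBPA). The others were not called, among them ADIPOQ, which the paper reports as numerically higher in BI without significance. The sum of the 5 was 5576 to 10112 in AL and 1378 to 4257 in BI. FASN gave most of it in AL, with 4022 to 8196 there and 809 to 3410 in BI. FASN, SCD and FABP4 were higher in AL without overlap, LEP and CEBPA overlapped, and none of these genes was at 0 in any pig. The part of these marker levels in the differences of DLL4, LYL1, GATA2 and EGFL7 was not tested. None of the 8 mural, 5 lymphatic, 8 fibroblast or 12 mast cell and blood cell markers had values per pig. An authors' mean was found by symbol for only 4 of the 12 mast cell and blood cell markers, 3 of the 5 lymphatic and 6 of the 8 fibroblast ones. The lack of called markers is therefore no evidence that these cells were equal between the breeds. Of 8 skeletal muscle markers MYH7 alone had values per pig, with breeds that overlapped (0.907 to 9.30 in AL, 4.72 to 40.5 in BI).

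Taken relative to the mean log2 level of the 6 other endothelial genes, a scale chosen after the values were seen, the 4 genes spread differently. That mean was itself 1.32 lower in AL on the log2 scale (SE 0.16), and the 6 genes come from a table of called genes. The relative difference, AL minus BI, was −0.10 (SE 0.44, exact p = 0.886) for DLL4 and −0.39 (SE 0.40, exact p = 0.314) for LYL1. It was 0.23 (SE 0.24, exact p = 0.371) for GATA2, which changed sign. For all 3 the breeds overlapped on this scale. EGFL7 was 2.21 (SE 0.33, exact p = 0.029) higher in AL relative to those genes, without overlap. For EGFL7 this was fixed in advance, since a gene higher in AL was set against a mean that was lower in AL. The scale raised the AL minus BI difference of each of the 4 genes by 1.32. These p-values therefore describe the scale and are no evidence about the genes.

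**Figure D5:**
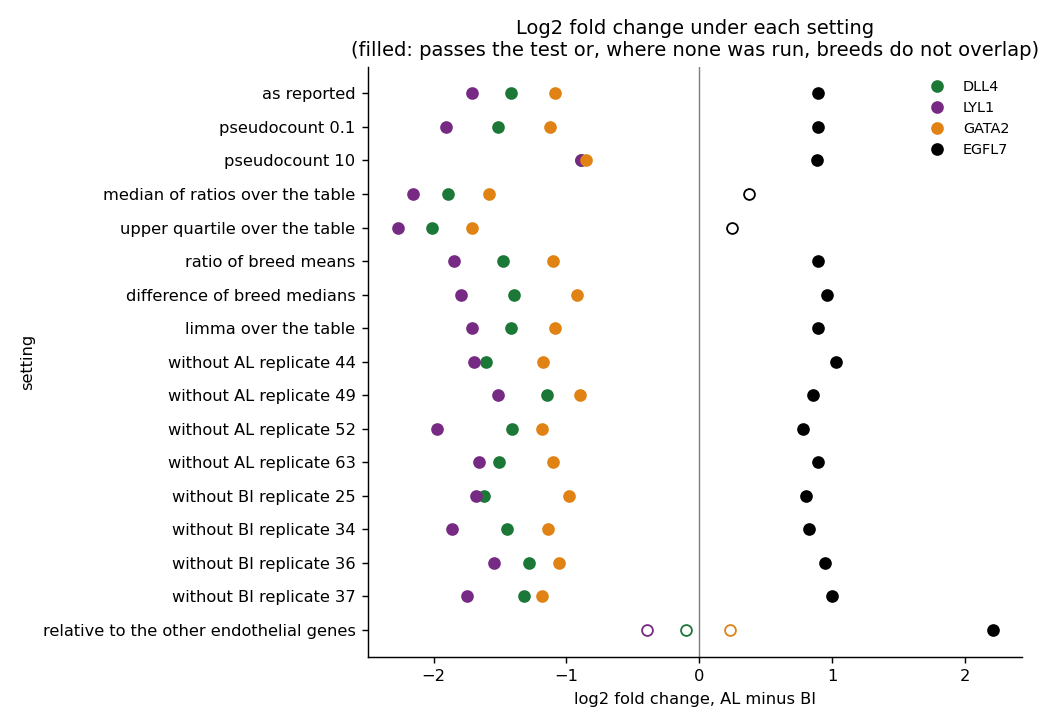
Log2 fold change, AL minus BI, of the 4 genes (horizontal axis) under each processing setting (rows). Filled points pass the exact or limma test of that setting, or, where no test was run (ratio of means, difference of medians, 1 pig left out), have breeds that do not overlap, and open points do not. EGFL7 is open at 0.38 and 0.24 under the rescalings over the 458 genes, and DLL4, LYL1 and GATA2 are open at −0.10, −0.39 and 0.23 relative to the other endothelial genes.

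The genes whose pattern over the 8 pigs was most like each of the 4 were found by the root mean square difference of centred log2 values among the other 457 genes. This is a description in which the breed difference takes part. DLL4 was most like MYADM (0.237), the mannosyltransferase PIGZ (0.249) and the zinc finger factor MZF1 (0.303), beside a median of 1.21 over all genes, with GATA2 at rank 29 and LYL1 at rank 44. For LYL1 they were the centrosome protein PCNT (0.380), the scaffold SHANK3 (0.395) and the splicing protein XAB2 (0.410), with GATA2 at rank 6. GATA2 was most like CROCC (0.171), a ciliary rootlet protein, AKAP17A (0.214) and the metalloprotease ADAMTS10 (0.223). For EGFL7 they were the thioesterase ACOT8 (0.121), EMP3 (0.138) and TALDO1 (0.142), the transaldolase of the pentose phosphate pathway, and none of the other 3 vascular genes ranked above 296.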

How the data were processed

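Reads from dorsal subcutaneous fat of 8 pigs were trimmed by the authors with Trim Galore 0.5.0, aligned to Sscrofa11.1 with HISAT2 2.1.0, handled with SAMtools 1.9 and counted per gene with HTSeq 0.11.1, as named in the submitters' processing notes. The deposited signal of each pig is the normalized count, a gene's count divided by that pig's DESeq2 size factor, which the authors gave for the 458 genes they called. A second deposited table gives a mean count over the 8 pigs for 10710 genes. The authors' fold changes, standard errors, statistics and p-values in these files were not used.

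Size factors read from the step of 1 read were 0.675 to 1.10 in AL and 1.06 to 1.46 in BI, so that 1 read was worth 0.687 to 1.48 normalized counts, and 100% of the values were whole multiples within 0.02 reads. The step rests on few low values in 5 of the 8 pigs, so that read numbers and Poisson intervals hold only as far as it does, and no count test was run on them. Between 359708 and 883622 reads per pig lay on the 458 genes. Poisson intervals cover counting error only.

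The log2 FC used a pseudocount of 1 and no filter, and the exact permutation test described with the results. The genes named were the 4 members, list genes with values per pig, the 3 genes most like each member and genes within 5 kb of a member. Levels, positions of other list genes and their opposite-strand neighbours were added for context. Members and lists were chosen with earlier results of these data known. Positions, exons and promoters were looked up by symbol in RefSeq (Sscrofa11.1).

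Alternatives were pseudocounts of 0.1 and 10, 2 rescalings, ratios of means, differences of medians, a mean of at least 50, limma and leaving out each pig. The calculations were tested on simulated data. Tests ran in SciPy 1.17.1 under Python 3.11.15, tables in pandas 2.3.3 and NumPy 2.4.6, plots in Matplotlib 3.10.9, and limma 3.58.1 in R 4.3.3.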

Additional observations from a re-analysis of the deposited data

Results flagged for a closer look

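Of 42 groups tested (21 genes in each breed), 2 had 1 pig far from the others by Dixon's test, which chance alone gives in about 1 of 20 groups. PODXL in AL was 38.5 normalized counts in AL 44, against 15.4 to 17.3 in the other 3 AL pigs. LEP in BI was 86.0 normalized counts in BI 36, against 24.2 to 32.1 in the other 3 BI pigs. None of DLL4, EGFL7, LYL1 and GATA2 had such a pig.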

How the results depend on the processing

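DLL4, LYL1 and GATA2 kept their direction and passed the test under each alternative pseudocount, each rescaling over the 458 genes and limma, and EGFL7 did so under all of these but the rescalings. Where breeds do not overlap, the exact p stays at its smallest value at any pseudocount, so that the pseudocounts could not change it. The rescalings moved the table toward BI, which favours genes higher in BI. Ratios of means, differences of medians and removed pigs were not tested. All 4 genes kept their direction there, which follows from breeds that do not overlap. Under the rescalings over called genes, the log2 FC of EGFL7 was 0.38 with the median of ratios and 0.24 with the upper quartile. The number of genes without overlap fell from 364 to 273 with the median of ratios and to 236 with the upper quartile. Relative to 6 other endothelial genes, a scale added after the values were seen, DLL4 was −0.10, LYL1 −0.39 and GATA2 0.23, with the sign turned for GATA2. Those 6 called genes were lower in AL, so that the scale by construction moved all 4 members toward AL. Requiring a mean of at least 50 normalized counts kept 295 genes, which by construction left EGFL7 as 1 of the 4 members, and 3 endothelial and 4 vascular genes without overlap in place of 8 and 11, beside 243 of those 295 genes. With any 1 of the 8 pigs removed, log2 FCs ran from −1.62 to −1.15 for DLL4, −1.97 to −1.52 for LYL1, −1.19 to −0.90 for GATA2 and 0.78 to 1.03 for EGFL7. Their breeds stayed without overlap by construction, since removing a pig cannot create overlap. For the same reason the number of genes without overlap cannot fall, and it was 368 to 411 of 458. By limma over the 458 genes, with Benjamini-Hochberg adjustment, the adjusted p was 0.00675 for DLL4, 0.00576 for LYL1, 0.00670 for GATA2 and 0.00578 for EGFL7, beside 99.6% of the 458 genes called. No paired analysis was possible because the breeds share no replicate numbers. A count test on recovered reads was not run, since whole reads could not be established from the few low values in 5 of the 8 pigs. DLL4 and LYL1 rest on under 10 reads in every AL pig, which limits the precision of their fold changes.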
